A study of Mus musculus with 17 samples.

Results

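The genes described here are 10 of the 55450 genes in the bulk RNA-seq table: the DNA methyltransferases Dnmt1, Dnmt3a and Dnmt3b, their partner Uhrf1, the 5-methylcytosine dioxygenases Tet1, Tet2 and Tet3, and 3 genes best known from the germline, Rhox5, Dazl and Mael. They were picked by name with their levels in these libraries already known, so their levels and differences are given as a description, with no p-value. Whether each passed the thresholds of the fit over all genes is stated once, beside the share of all genes that did, and is not evidence about them. The study cultured cells from tumor-bearing organs of female FVB/NJ MMTV-PyMT mice aged 10 to 12 weeks, a strain whose viral promoter drives the polyoma middle T oncogene mainly in mammary epithelium, for about 1 month before sorting. The deposited data hold 14 bulk RNA-seq libraries in 7 groups of 2, and 3 single-cell RNA-seq libraries, 1 per group. The paper describes 2 replicates per sample for single-cell RNA-seq. The titles of the lung single-cell libraries read rep1, and that of the lymph node library names no replicate. The MFP group came from the mammary fat pad primary tumor and has no CD44 status in the labels. The other 6 groups were sorted as CD44low/EpCAMhigh or CD44high/EpCAMhigh cells from lymph node (LN), bone marrow (BM) or lung, each library of a group being a clonal isolate from a different mouse, so that a library stands for 1 clone. The single-cell libraries were made from lung-derived CD44high cells, lung-derived CD44low cells and LN-derived CD44high cells.

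DNA methylation at CG dinucleotides is copied after replication by Dnmt1, which Uhrf1 brings to hemimethylated sites, while Dnmt3a and Dnmt3b methylate sites anew and the Tet enzymes oxidize 5-methylcytosine as a first step of its removal. Dnmt1 and Uhrf1 are known to be highest in dividing cells. Promoter methylation is known to keep many germline genes silent in somatic tissue: Rhox5 is an X-linked homeobox gene of Sertoli cells and placenta, Dazl codes for an RNA-binding protein of germ cells, and Mael acts in the piRNA pathway that silences transposons.

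All 10 genes are annotated as protein coding in GENCODE vM21 on mm10. Rhox5 (ENSMUSG00000095180.8) lies at chrX:37804842-37808876 on the plus strand, Dazl (ENSMUSG00000010592.9) at chr17:50279395-50293636 on the minus strand and Mael (ENSMUSG00000040629.8) at chr1:166201201-166238747 on the minus strand. Dnmt1 (ENSMUSG00000004099.16) lies at chr9:20907209-20959888 on the minus strand and Uhrf1 (ENSMUSG00000001228.14) at chr17:56303321-56323486 on the plus strand. Promoter windows from RefSeq (GRCm38.p6), of 250 bases before and 50 bases after an annotated start, were found for all 10. The windows of the 3 germline genes and of Uhrf1 are printed to show the CG sites around their starts, since 2 of these genes, Rhox5 and Uhrf1, separate lung from LN and BM and the other 2, Dazl and Mael, do not. Each is written 5′ to 3′ on the strand of its gene, with CG dinucleotides in capitals.
Rhox5: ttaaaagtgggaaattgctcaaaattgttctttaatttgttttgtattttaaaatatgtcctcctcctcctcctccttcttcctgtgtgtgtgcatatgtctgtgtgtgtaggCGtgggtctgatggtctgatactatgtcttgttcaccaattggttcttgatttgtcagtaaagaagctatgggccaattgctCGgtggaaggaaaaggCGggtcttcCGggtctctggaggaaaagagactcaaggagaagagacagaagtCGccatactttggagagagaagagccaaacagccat
Dazl: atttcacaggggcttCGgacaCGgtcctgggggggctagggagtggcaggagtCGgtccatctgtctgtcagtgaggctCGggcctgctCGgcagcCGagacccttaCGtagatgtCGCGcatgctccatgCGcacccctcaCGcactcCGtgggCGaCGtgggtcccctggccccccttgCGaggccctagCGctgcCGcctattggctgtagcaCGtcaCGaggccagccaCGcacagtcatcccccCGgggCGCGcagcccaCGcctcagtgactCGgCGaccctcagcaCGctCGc
Mael: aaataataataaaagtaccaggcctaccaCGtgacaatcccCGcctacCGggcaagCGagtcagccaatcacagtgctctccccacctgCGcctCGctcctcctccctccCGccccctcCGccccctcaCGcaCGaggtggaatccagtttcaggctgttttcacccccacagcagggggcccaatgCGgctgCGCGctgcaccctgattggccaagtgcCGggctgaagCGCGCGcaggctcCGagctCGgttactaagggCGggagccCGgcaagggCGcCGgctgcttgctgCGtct
Uhrf1: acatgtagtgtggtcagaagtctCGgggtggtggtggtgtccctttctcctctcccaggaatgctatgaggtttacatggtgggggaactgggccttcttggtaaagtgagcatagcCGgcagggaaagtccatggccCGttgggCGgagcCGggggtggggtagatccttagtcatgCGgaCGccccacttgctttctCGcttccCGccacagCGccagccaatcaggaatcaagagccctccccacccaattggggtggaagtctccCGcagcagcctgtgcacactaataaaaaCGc

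The Rhox5 window (chrX:37754358-37754657) held 5 CG dinucleotides, against a median of 7 and quartiles of 3 and 20 over 32851 RefSeq windows. It lies 50234 bases upstream of the first base of the GENCODE gene, so it belongs to a distal annotated start. The Dazl window (chr17:50293571-50293870) held 28 and the Mael window (chr1:166238695-166238994) held 24, more than in 85.8% and 80.0% of windows. The Uhrf1 window nearest to its GENCODE start (chr17:56303087-56303386) held 12, and a second RefSeq start of Uhrf1 had 33. Dnmt1 had 3 annotated starts with 2, 12 and 33. The windows nearest to the GENCODE starts of the other 5 genes held 46 for Dnmt3a, 30 for Dnmt3b, 17 for Tet1, 57 for Tet2 and 22 for Tet3. The E-box CACGTG, searched on both strands, was found in 7.15% of windows and, among the windows nearest to the starts of the 10 genes, in that of Mael. The E2F core TTCCCGC, also searched on both strands, was found in 4.6% of windows and, among the same 10, in that of Uhrf1. These matches describe letters in a window and show neither binding nor methylation, which was not measured.

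The deposited bulk values are TPM, transcript abundances scaled to the same total in every library, which keep no record of read depth. Between 11508 and 13052 genes per library had at least 1 TPM, and only a minimum depth is stated in the methods. An exact 0 in such a file is written here as listed at 0. Of 9 epithelial markers, 6 reached 1 TPM in at least 1 of the LN- and BM-derived libraries, where the list summed to 2091 to 4401 TPM, while the 4 lung libraries summed to 1.74 to 87.5 TPM. Epcam, the sorting marker, ranged from 315 to 941 TPM in LN- and BM-derived libraries and was at 0 to 0.86 TPM in the lung libraries, which goes against their EpCAMhigh label. The 8 fibroblast markers summed to 4708 and 5117 TPM in the lung CD44low libraries, 85.7 and 195 TPM in the lung CD44high libraries and 3.51 to 19.9 TPM in those of LN and BM. These markers move with every difference given below between lung and the other organs, and their part in it was not tested. The 5 macrophage markers summed to 10.0 to 39.2 TPM in lung and to 2.28 to 8.61 TPM in LN- and BM-derived cells, without overlap, mainly through Lyz2 (6.15 to 35.2 against 0.52 to 4.28 TPM), while Adgre1 was listed at 0 in every library and Ptprc did not exceed 0.20 TPM. Lymphocyte and endothelial markers stayed at or below 0.19 TPM in sum in every library. In these bulk libraries, fewer cells that express a gene and less RNA per cell cannot be told apart.

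Rhox5 separated the groups more widely than any other of the 10 genes. Its level was 488 and 396 TPM in LN-derived CD44low cells, 446 and 432 TPM in LN-derived CD44high cells, 515 and 421 TPM in BM-derived CD44low cells and 423 and 412 TPM in BM-derived CD44high cells, replicate 1 first. It was 0.96 and 0.21 TPM in MFP, and it was listed at 0 in all 4 lung libraries. All 8 LN and BM libraries were above all 6 others, with no library in between. Among the LN and BM groups the order of means was BM CD44low, LN CD44low, LN CD44high and BM CD44high, and the lowest mean (418 ± 7.91 TPM, SD, n = 2) and the highest (468 ± 66.2 TPM, SD, n = 2) differed by less than the spread of the highest. The one pair of neighbours in this order whose libraries did not overlap was LN CD44high and BM CD44high. On the log2(TPM + 1) scale, the difference from MFP was between 8.09 and 8.24 in the 4 LN and BM groups, each with a standard error of 0.24. With a pseudocount of 0.1 in place of 1 it was 9.51 to 9.67. Marker sums differed between the same groups, the epithelial list being at 6864 and 7708 TPM in MFP against 2091 to 4401 TPM in LN and BM, the fibroblast list at 0.48 and 1.27 against 3.51 to 19.9 TPM and the mitotic list at 846 and 929 TPM against 512 TPM in replicate 2 of the LN-derived CD44low cells and 3316 to 5289 TPM in the other 7. The mitotic sums of these 7 libraries came mainly through Birc5, at 2496 to 4172 TPM against 161 and 146 TPM in MFP. Mki67 (5.91 to 28.1 against 8.01 and 6.69 TPM) and Top2a (59.3 to 156 against 82.2 and 61.9 TPM) overlapped with MFP. The part of these markers in the difference of Rhox5 from MFP was not tested. No fold is given against lung, where the gene was listed at 0. Of 6 markers of Sertoli cells, the somatic cells in which Rhox5 is known, 1 reached 1 TPM in at least 1 LN- or BM-derived library, namely Sox9, at 111 to 358 TPM there, 152 and 155 TPM in MFP and 57.7 to 74.3 TPM in lung. Wt1, another of them, was at 18.2 to 22.6 TPM in lung and listed at 0 elsewhere, so that it passed the filter on low TPM only through the lung libraries.

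**Figure D1:**
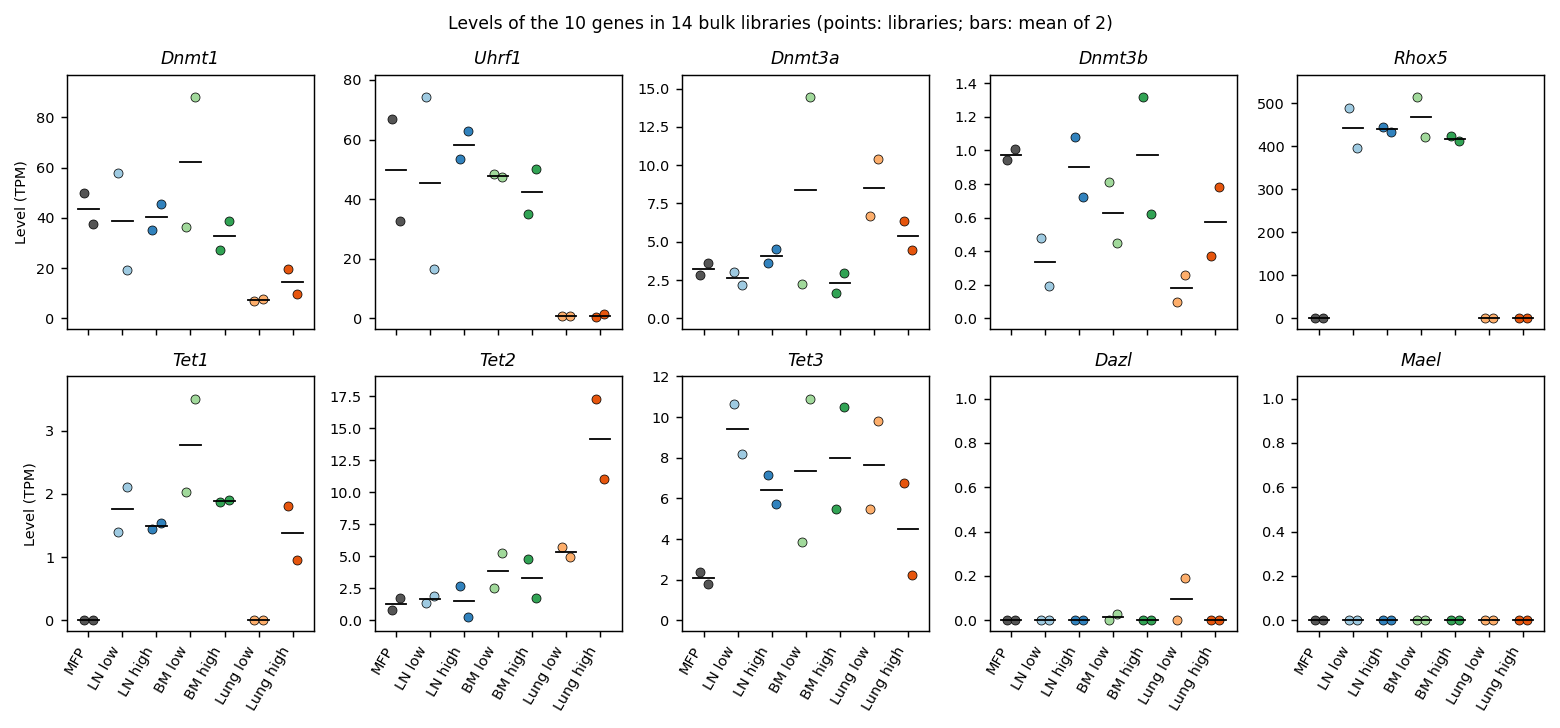
Level in TPM (y axis, linear, scaled separately for each gene) of the 10 genes in the 7 bulk groups (x axis), with a point for each library and a bar at the mean of 2. Rhox5 stood at 396 to 515 TPM in all 8 libraries from LN or BM and at most at 0.96 TPM elsewhere, Uhrf1 was at most at 1.58 TPM in the 4 lung libraries, and Mael was listed at 0 in all 14.

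The other 2 germline genes did not share this pattern. Mael was listed at 0 in all 14 libraries. Dazl was listed at 0 in 12 libraries and stood at 0.03 TPM in replicate 2 of BM-derived CD44low cells and at 0.19 TPM in replicate 2 of lung-derived CD44low cells. Neither gene reached the 1 TPM in 2 libraries that a gene needed to enter the fit, so 8 of the 10 genes were among the 15348 tested.

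Of the maintenance genes among the members, Dnmt1 and Uhrf1, Uhrf1 was the one whose lung libraries stood apart. MFP had 66.8 and 32.6 TPM of it. Its level was 74.4 and 16.5 TPM in LN-derived CD44low cells, 53.5 and 62.8 TPM in LN-derived CD44high cells, 48.3 and 47.6 TPM in BM-derived CD44low cells and 35.0 and 49.98 TPM in BM-derived CD44high cells. In lung-derived cells it was 0.90 and 0.84 TPM in CD44low and 0.30 and 1.58 TPM in CD44high libraries. No lung library overlapped with any of the other 10, and the 2 lung groups overlapped with each other. The log2 difference between the 4 lung and the 8 LN and BM libraries was -4.64 ± 0.38 (SE). The lowest of the 8 was replicate 2 of the LN-derived CD44low cells, and without it the difference was -4.90. With a pseudocount of 0.1 it was -5.66.

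Dnmt1 was lower in lung-derived cells as well, by less, and its libraries overlapped. MFP had 49.8 and 37.6 TPM of it. Its level was 58.0 and 19.3 TPM in LN-derived CD44low cells, 35.4 and 45.6 TPM in LN-derived CD44high cells, 36.3 and 88.3 TPM in BM-derived CD44low cells and 27.1 and 38.8 TPM in BM-derived CD44high cells. The lung libraries were at 7.05 and 7.81 TPM in CD44low cells and at 19.8 and 9.55 TPM in CD44high cells. Replicate 1 of the lung-derived CD44high cells, at 19.75 TPM, was above replicate 2 of the LN-derived CD44low cells, at 19.26 TPM. All the other lung libraries were below all LN, BM and MFP libraries. The log2 difference between lung and LN and BM was -1.87 ± 0.34 (SE), and leaving out each library in turn moved it between -2.11 and -1.62.

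Genes of the cell cycle moved in the same libraries. Of 15 S phase genes (Mcm2, Pcna, Rrm2 and others), 13 were lower in lung-derived than in LN- and BM-derived cells, as were all 12 mitotic genes (Mki67, Top2a and others), counted as differentially expressed genes (DEGs), which in the limma fit of log2(TPM + 1) needed an adjusted p (Benjamini-Hochberg) below 0.05 and a log2 difference beyond 2 in either direction. Of all genes tested, 5.54% were DEGs lower in lung in this comparison. The S phase genes summed to 156 to 254 TPM in lung and to 622 to 1885 TPM in LN and BM libraries. The lowest of the latter was replicate 2 of the LN-derived CD44low cells, the next lowest library being at 1185 TPM, and that replicate also had the lowest Uhrf1 and Dnmt1 of the 8. Taken as a share of the S phase sum of the same library, Uhrf1 was at 0.15% to 0.62% in lung, 2.57% to 3.95% in LN and BM and 2.94% to 3.58% in MFP. The same share for Dnmt1 was 3.75% to 9.97% in lung, 1.93% to 5.84% in LN and BM and 2.67% to 3.39% in MFP. As a share of this sum, Uhrf1 was thus lower in lung without overlap and Dnmt1 was not. The highest genes of the sum in every lung library were Pcna (40.6 to 55.0 TPM) and Tyms (42.5 to 69.7 TPM). Others fell further, such as Mcm5 (0.27 to 6.94 TPM in lung, 36.0 to 155 TPM in LN and BM) and Cdc6 (0.22 to 0.77 and 7.07 to 24.9 TPM). The share therefore does not describe Uhrf1 beside each replication gene. The part of the cell cycle genes in the lower Uhrf1 and Dnmt1 was not tested.

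The de novo enzymes were low throughout. Dnmt3a was at 1.67 to 14.5 TPM, with its 4 lung libraries at 4.43 to 10.4 TPM and 7 of the 8 LN and BM libraries at 1.67 to 4.50 TPM. The exception was replicate 2 of the BM-derived CD44low cells, the highest of all 14 at 14.47 TPM, where the other replicate was at 2.27 TPM. The log2 difference between lung and LN and BM was 0.77 ± 0.37 (SE), and 1.05 without that library. Dnmt3b did not exceed 1.32 TPM in any library and reached 1 TPM in 3 of 14. Its means ran from 0.18 TPM in lung-derived CD44low cells to 0.98 TPM in MFP, and each group overlapped with the next in the order of means.

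The Tet genes followed 3 different patterns. Tet1 was listed at 0 in both MFP and both lung-derived CD44low libraries, and it was at 1.40 to 3.51 TPM in all 8 libraries of LN and BM. Lung-derived CD44high cells had 1.81 and 0.96 TPM of Tet1, which overlapped with LN-derived cells. The group with the highest mean, BM-derived CD44low cells (2.03 and 3.51 TPM), did not overlap with BM-derived CD44high cells (1.87 and 1.91 TPM).

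Tet2 was highest in lung. Its level was 17.3 and 11.1 TPM in lung-derived CD44high cells and 5.74 and 4.91 TPM in lung-derived CD44low cells, and 0.25 to 5.23 TPM in the 8 from LN or BM. MFP had 0.80 and 1.76 TPM. Both CD44high lung libraries were above all 12 others, while the CD44low lung libraries overlapped with BM. The log2 difference between lung and LN and BM was 1.60 ± 0.34 (SE). Tet3 was at 1.79 and 2.36 TPM in MFP and at 2.24 to 10.9 TPM in the other 12 libraries. One lung-derived CD44high library, replicate 2, lay within the MFP range, and all the other 11 were above it.

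In the fit, 2 of the 8 tested members were DEGs between lung-derived and LN- and BM-derived cells, Uhrf1 and Rhox5, against 12.7% of all genes tested, and both were lower in lung. Rhox5 reached 1 TPM in LN and BM libraries alone and passed the filter only through them, so that its call had to come out this way. These were also the 2 members whose 4 lung and 8 LN and BM libraries did not overlap, where 25.9% of all genes tested had no overlap. Against MFP, Rhox5 was the 1 member called in each of the LN and BM groups, where 4.79% (LN CD44low), 6.12% (LN CD44high), 7.16% (BM CD44low) and 7.67% (BM CD44high) of genes were called. Uhrf1 and Dnmt1 were called in lung-derived CD44low cells (18.8% of genes) and Uhrf1 and Tet2 in lung-derived CD44high cells (13.5%). Between CD44high and CD44low cells no member was called in LN (0.208% of genes), BM (0.104%) or lung (11.3%), nor when the CD44 difference in lung was set against that in LN (10.4%) or BM (8.66%). Since the members were chosen with these differences known, nothing is read from these counts.

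Within the organs, the CD44 groups of several members did not overlap. In lung, CD44high cells were above CD44low cells in Dnmt1, Dnmt3b, Tet1 and Tet2 and below them in Dnmt3a. In LN, CD44high cells were above CD44low cells in Dnmt3a and Dnmt3b and below them in Tet3, and in BM they were below them in Tet1. Among all genes tested, 66.9% had no overlap between the CD44 groups in lung, 36.8% in LN and 33.4% in BM, so nothing is read from these orders. Tet2 in lung had a log2 difference of 1.24 ± 0.56 (SE). Tet1 was listed at 0 in lung-derived CD44low cells, so no fold is given for it and its log2 difference depends on the pseudocount. Rhox5 and Uhrf1 overlapped between CD44high and CD44low cells in LN and BM, and Uhrf1 also in lung.

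Over the 14 libraries, the genes whose log2(TPM + 1) followed that of Rhox5 most closely were Slc47a1 (Pearson r = 0.998), Xlr3a (0.995), AI662270 (0.995), 3830403N18Rik (0.994) and Gm773 (0.994). Xlr3a, 3830403N18Rik and Gm773 lie on chromosome X, as Rhox5 does, and Slc47a1 and AI662270 on chromosome 11. Each of the 5 was at or above 22.6 TPM in all 8 LN and BM libraries and at or below 0.12 TPM in the other 6, so that these correlations reflect 2 sets of libraries. The genes most like Dnmt1 were Hirip3 (0.974), Rbbp8 (0.974), Nsd2 (0.967), G2e3 (0.966) and Ints7 (0.964). Those most like Tet1 were Acot1 (0.955), Slc5a8 (0.95), Ppargc1a (0.944), Plekhb1 (0.944) and D630036H23Rik (0.944). Dnmt3b had one close match, Sars (0.962), the next being Echs1 (0.806), Bid (0.790), Traf2 (0.789) and Trabd (0.786).

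The pathway lists around the members, 9 lists with 170 genes of which 65 were tested, were part of the same fit over all 15348 genes. In it 17 list genes were DEGs between lung and LN and BM (12.7% of all genes), 25 in at least 1 of 6 groups against MFP (28.7%) and 7 in at least 1 of 3 CD44 comparisons (11.5%). Of the 17, 9 passed the filter on low TPM only through the organs where they were high (Rhox2d, Rhox2g, Rhox4a2, Magea5, Magea8, Xlr, Xlr3a, Xlr4a and Zbtb4), so that these had to differ, and their levels are given as a description with no test. Of 7 maintenance partners, 3 were DEGs lower in lung-derived than in LN- and BM-derived cells and none was higher, against 5.54% of all genes lower and 7.13% higher. They were Hells, a chromatin remodeler needed for DNA methylation (0.85 to 5.10 TPM in lung, 15.2 to 74.9 TPM in LN and BM, log2 difference -3.65 ± 0.35, adjusted p = 1.5e-05), Cdca7, which recruits Hells (0.42 to 3.86 against 7.74 to 27.4 TPM, -2.96 ± 0.30, adjusted p = 1.9e-05), and the histone H3K9 methyltransferase Suv39h1. Suv39h1 was at 1.99 to 4.93 TPM in lung and at 7.19 to 32.1 TPM in LN and BM (-2.03 ± 0.33, adjusted p = 0.00047), close to the limit of 2, and it fell short of it without LN CD44low replicate 1 (-1.78), LN CD44high replicate 2 (-1.997), BM CD44high replicate 2 (-1.97) or lung CD44low replicate 1 (-1.86). The median of the list was -1.06, beside 0.20 over all genes tested. Hells and Cdca7 were DEGs lower than in MFP in both lung groups and Suv39h1 in lung-derived CD44low cells, and no gene of the list was a DEG in the 4 LN and BM groups. Hells is known to be high in dividing cells, and the cell cycle genes above moved in the same libraries. Their part in the differences of this list was not tested.

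**Figure D2:**
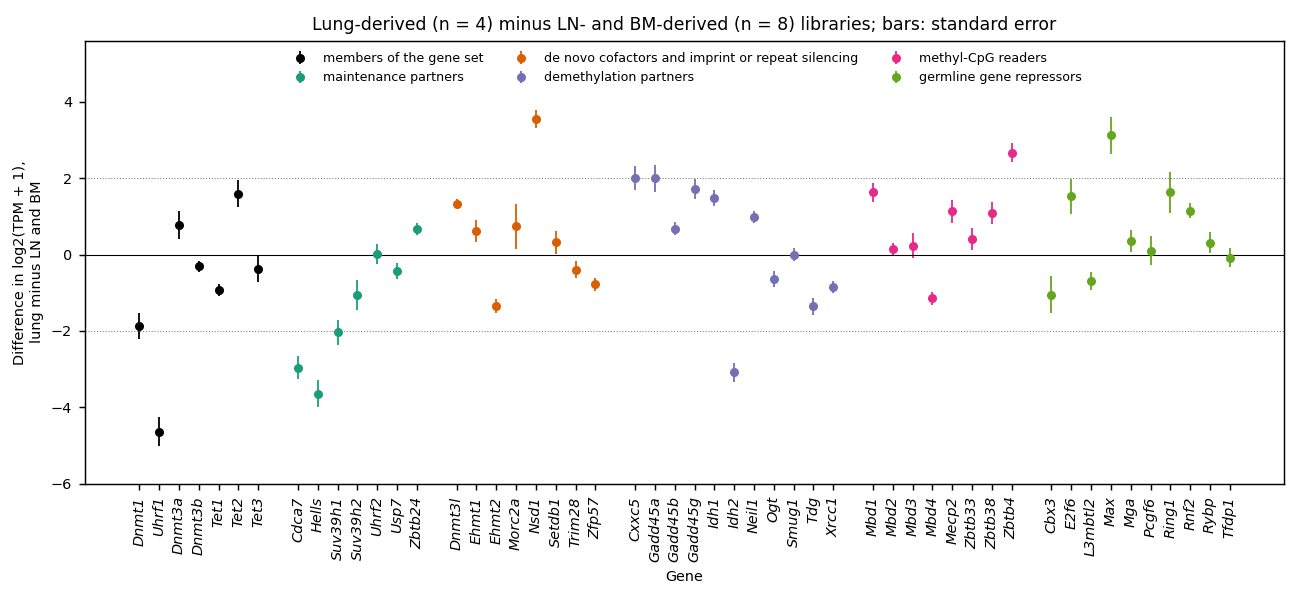
Difference in log2(TPM + 1) between lung-derived (n = 4) and LN- and BM-derived (n = 8) libraries (y axis) for 7 members and for the tested genes of 5 pathway lists (x axis), with standard errors from the fit and dotted lines at the limit of 2 in either direction. Uhrf1 (-4.64), Hells (-3.65), Idh2 (-3.08), Cdca7 (-2.96) and Suv39h1 (-2.03) lay below the lower line, and Nsd1 (3.55), Max (3.12), Zbtb4 (2.66) and Cxxc5 (2.01) above the upper one, where Zbtb4 is a description with no test, since it passed the filter only through lung.

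Of 10 cofactors of de novo methylation and of imprint or repeat silencing, 8 were tested. Nsd1, a histone H3K36 methyltransferase, was higher in lung (8.91 to 22.7 TPM) than in LN and BM (0.15 to 1.20 TPM), at 3.55 ± 0.22 with an adjusted p of 7.9e-07. Dnmt3l, the catalytically inactive partner of the de novo enzymes, was at 6.26 and 6.45 TPM in lung-derived CD44low cells and at most at 0.60 TPM in the other 12 libraries. It passed the filter only through these 2 libraries, so no test of it is given. Nsd1 was higher than MFP in lung-derived CD44low cells (2.22 ± 0.37, adjusted p = 0.00088). Nsd1 was lower than in MFP in BM-derived CD44high cells (-2.02 ± 0.37, adjusted p = 0.0031), close to the limit of 2. With median-ratio scaling it was at -1.76 and fell short of it. Dnmt3c, a rodent de novo enzyme of the male germline, did not exceed 0.19 TPM and was not tested.

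Of 12 demethylation partners, 11 were tested. Between lung-derived and LN- and BM-derived cells, 1 was a DEG higher in lung and 1 lower, against 7.13% of all genes higher and 5.54% lower. With no limit on the log2 difference, 6 were higher and 4 lower in the limma fit at an adjusted p under 0.05. Idh2, a mitochondrial enzyme that makes the 2-oxoglutarate the Tet enzymes consume, was at 28.2 to 44.5 TPM in lung and at 142 to 465 TPM in LN and BM (-3.08 ± 0.24, adjusted p = 3.8e-06). It was a DEG higher than in MFP (31.3 and 18.9 TPM) in all 4 LN and BM groups, at log2 differences of 3.22 to 4.18. Cxxc5, a CXXC protein that binds unmethylated CG sites, was at 5.48 to 25.7 TPM in lung and at 1.44 to 4.25 TPM in LN and BM (2.01 ± 0.31, adjusted p = 0.00034). Its log2 difference dropped under 2 without LN CD44low replicate 2 (1.96), LN CD44high replicate 2 (1.88), BM CD44low replicate 1 (1.88), BM CD44high replicate 2 (1.99998), lung CD44low replicate 2 (1.98) or lung CD44high replicate 1 (1.84). Against MFP, Cxxc5 was higher in both lung groups (3.81 ± 0.50 in CD44low cells, adjusted p = 0.00021, and 2.15 ± 0.50 in CD44high cells, adjusted p = 0.0079), the latter being 1.58 without MFP replicate 2 and 1.82 without lung CD44high replicate 1.

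The stress genes Gadd45a and Gadd45g, which have been linked to active demethylation, were DEGs in lung-derived CD44low cells against MFP. Gadd45a was at 105 and 104 TPM there and at 3.59 and 5.45 TPM in MFP (4.28 ± 0.58, adjusted p = 0.00023), and Gadd45g was at 359 and 334 TPM against 49.7 and 54.1 TPM (2.72 ± 0.42, adjusted p = 0.0006). Ogt, the O-GlcNAc transferase that binds Tet proteins, was lower in the same comparison (11.4 and 16.1 against 59.3 and 60.6 TPM, -2.07 ± 0.34, adjusted p = 0.00078), and -1.83 without lung CD44low replicate 1.

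Of 8 methyl-CpG readers, all tested, Zbtb4 was at 3.01 to 22.1 TPM in lung and at 0.28 to 2.04 TPM in LN and BM, and it was higher in lung-derived CD44low cells than in MFP (3.82 ± 0.41, adjusted p = 4.7e-05). Mbd4, a glycosylase for mismatches at methylated CG sites, was lower in lung-derived CD44high cells (1.12 and 1.28 TPM) than in MFP (9.07 and 7.66 TPM), at -2.09 ± 0.28 with an adjusted p of 0.00031, and at -1.98 without MFP replicate 1. Of 10 repressors of germline genes, members of the E2f6 and Polycomb complex PRC1.6, Max was higher in lung (35.0 to 56.3 TPM) than in LN and BM (3.12 ± 0.49, adjusted p = 0.00038). In LN and BM, 7 libraries had 1.66 to 7.25 TPM of Max and replicate 2 of the BM-derived CD44low cells had 33.2 TPM, the same library that was highest in Dnmt1 and Dnmt3a. That library was also the highest of the 8 for Ring1 (15.5 TPM) and E2f6 (19.0 TPM), where the other 7 did not exceed 0.91 and 3.60 TPM.

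Against MFP, 3 of these 10 repressors were DEGs in lung-derived CD44low cells, where 18.8% of all genes tested were, namely Ring1 (16.0 and 16.0 against 0.56 and 0.77 TPM, adjusted p = 0.01), E2f6 (18.0 and 19.8 against 5.11 and 1.23 TPM, adjusted p = 0.023) and Max (48.2 and 56.3 against 9.74 and 8.74 TPM, adjusted p = 0.035). Without MFP replicate 1 the calls of Ring1 and Max were lost at log2 differences of 3.27 and 2.45, and without MFP replicate 2 those of E2f6 and Max at 1.70 and 2.31. Without lung CD44low replicate 1 or 2 all 3 calls were lost, at log2 differences of 3.36 and 3.36 for Ring1, 2.49 and 2.36 for E2f6 and 2.49 and 2.27 for Max. That of Max, at 2.38 in both, was also lost without lung CD44high replicate 1 or 2.

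Beyond the members, 37 of 38 other germline genes on the list were not tested, 9 of them listed at 0 in all 14 libraries, and the highest value among the 37 was 1.44 TPM (Nanos3), in bulk. The 1 tested gene, Tdrkh, a Tudor protein that binds PIWI proteins, was at 0.68 to 9.12 TPM in lung and at 4.35 to 12.1 TPM in LN and BM and was not a DEG between them. The X-linked families held genes with levels closer to those of Rhox5. Of 41 other Rhox genes, 7 passed the filter on low TPM, each through LN and BM libraries alone, so that nothing is read from their calls. Rhox2d (11.9 to 27.8 TPM in LN and BM), Rhox2g (2.88 to 15.5 TPM) and Rhox4a2 (0 to 8.41 TPM) were listed at 0 in all 4 lung and both MFP libraries. Rhox4a2 was listed at 0 also in replicate 1 of the BM-derived CD44high cells. The Rhox2 and Rhox4 genes are near-identical copies among which reads can be split, so values of single copies are uncertain.

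Of 40 genes of the X-linked Magea, Mageb and Xlr families, 9 passed the filter, again through LN and BM libraries alone. Xlr was at 47.2 to 111 TPM in LN- and BM-derived cells and at 0 to 0.86 TPM in lung. Xlr3a (26.6 to 45.7 TPM in LN and BM), Xlr4a (1.26 to 11.4 TPM), Magea5 (7.20 to 30.0 TPM) and Magea8 (5.45 to 17.7 TPM) were listed at 0 in all lung and MFP libraries. The Magea genes code for cancer-testis antigens. Magea8 was at 15.9 to 17.7 TPM in the 4 LN libraries and at 5.45 to 7.68 TPM in the 4 BM libraries, while Rhox5 overlapped between these organs, a difference between LN and BM that was not tested. Copies within these families are also near-identical.

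Of 4 RNAs of X inactivation, all tested, Xist was the 1 DEG between lung and LN and BM, against 12.7% of all genes. Xist, the RNA that coats the inactive X chromosome, was at 5.53 and 6.40 TPM in MFP, at 1.20 and 1.54 TPM in lung-derived CD44low cells, at 17.6 and 7.13 TPM in lung-derived CD44high cells and at most at 0.01 TPM in all 8 LN and BM libraries. It was higher in lung than in LN and BM (2.42 ± 0.20, adjusted p = 4.9e-06) and lower than in MFP in each of the LN and BM groups (-2.79 ± 0.33). Tsix, its antisense partner, was at 5.43 and 8.49 TPM in MFP, at 0.28 to 4.21 TPM in lung and at most at 0.02 TPM in LN and BM, and was a DEG lower than in MFP in the same 4 groups. Ftx was at 1.01 to 3.63 TPM in lung and 0.33 to 1.1 TPM in LN and BM, and Jpx at 0.63 to 4.95 and 0.40 to 3.71 TPM, and neither was a DEG between them. The library protocol named in the methods does not mark strand, so reads of Xist and Tsix cannot be told apart where they overlap. All 8 libraries in which Rhox5 was high had Xist at or below 0.01 TPM. Genes of chromosome Y (4 checked) did not exceed 0.02 TPM in sum in any library.

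**Figure D3:**
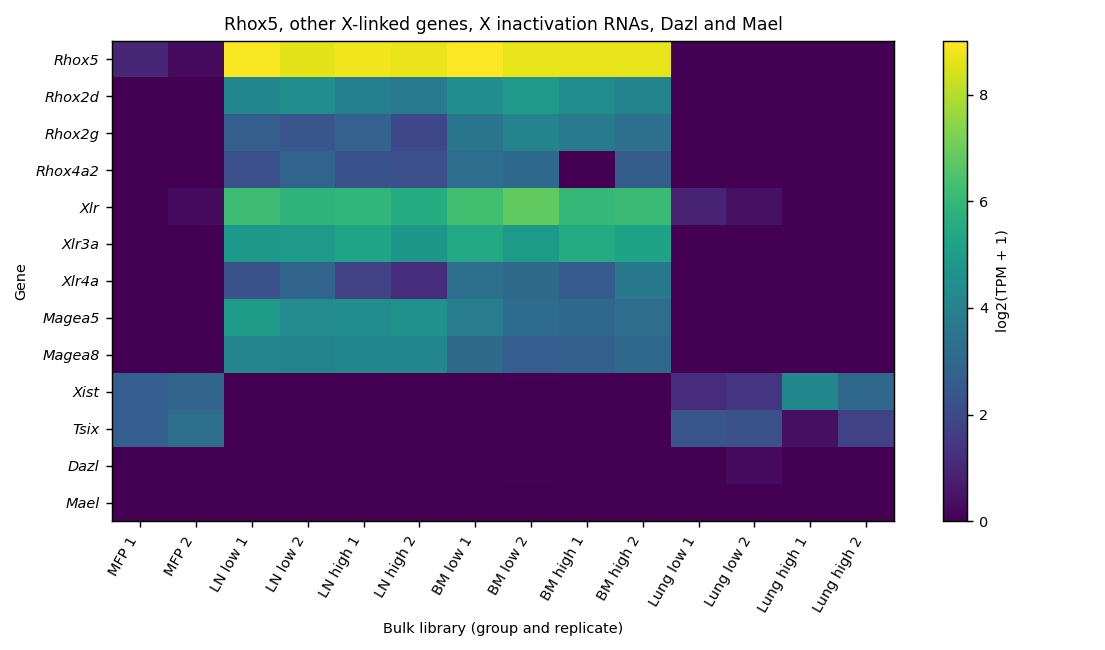
Levels as log2(TPM + 1) (color) of Rhox5, other X-linked genes called between lung and LN and BM, the X inactivation RNAs Xist and Tsix, and Dazl and Mael (rows) in the 14 bulk libraries (columns). The Rhox, Xlr and Magea genes were above all lung and MFP libraries in the 8 LN and BM libraries, except for Rhox4a2 in 1 of them, and there Xist and Tsix were at most at 0.02 TPM.

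Between CD44high and CD44low cells, 7 list genes were DEGs in at least 1 organ, all in lung. In LN and BM 0 passed in limma, where 8 each had an unadjusted p under 0.05. Without BM CD44low replicate 1 the count was 13, with 7 list genes called in BM (E2f6, Max, Mbd3, Morc2a, Pcgf6, Ring1 and Suv39h2) against the remaining library of that group, the one highest in Max, E2f6 and Ring1, which is then assumed to vary like the other groups. Without lung CD44high replicate 1 the count was 4, and with a pseudocount of 0.1 it was 13, of which 12 in lung and 1 in LN (Xlr4b). Xist (2.38 ± 0.33, adjusted p = 0.0004), Tdrkh (2.24 ± 0.28, adjusted p = 0.00023) and Rybp, a subunit of PRC1 complexes (2.11 ± 0.46, adjusted p = 0.0066), were higher in CD44high cells. Gadd45a (-2.86 ± 0.58, adjusted p = 0.0044), Gadd45g (-2.42 ± 0.42, adjusted p = 0.0019) and Ring1 (-2.76 ± 0.87, adjusted p = 0.037) were lower. Dnmt3l, the other of the 7, passed the filter only through the CD44low libraries, and Ring1 passed through the lung libraries of both groups. Without lung CD44high replicate 1, Xist (1.78), Rybp (1.63) and Gadd45g (-1.82) fell short of the limit, as did Tdrkh without lung CD44low replicate 1 (1.93), and the call of Ring1 was lost without any 1 of the MFP, LN CD44high, BM CD44high or lung libraries, at log2 differences of -2.82 to -2.70. The fibroblast markers separate these lung groups as well, and their part was not tested.

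In the single-cell libraries, 1236 lung CD44high, 348 lung CD44low and 2562 LN CD44high barcodes were kept, those with over 250 genes and a mitochondrial share of counts below 10%. Only 221, 235 and 348 of them had more than 500 genes, and the median depth of the kept barcodes was 557, 4011 and 585 counts. With 1 library per group there is no test between groups. Values are counts per 10000 with exact Poisson 95% intervals, which cover counting error only, and barcodes are numbered columns, so those shared between libraries could not be counted.

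Rhox5 had 1382 counts in 494 of 2562 LN-derived CD44high cells, 2.61 per 10000 (2.48 to 2.76), and 0 counts in both lung libraries. Marker lists differed between the same libraries. In LN, lung CD44high and lung CD44low cells, epithelial markers summed to 9.22, 4.27 and 0.88 per 10000, fibroblast markers to 0.12, 0.27 and 21.4 and Sertoli markers to 5.37, 1.99 and 0.82, and their part in the difference of Rhox5 was not tested. The upper limit of the interval for these counts of 0 was 0.0167 per 10000 in lung CD44high and 0.0166 in lung CD44low cells. The share of LN cells with a count was 19.3% (exact binomial interval 17.8% to 20.9%), against 0% in the lung libraries. Thinned to 2000 counts per cell, 97 of 254 LN cells (38.2%, and 83.1% of the same cells before thinning) had a count of Rhox5, against 0 of 194 and 0 of 206 lung cells, with 2308, 1042 and 142 shallower cells left out. In the same library, Rhox5 was at 2.87 per 10000 (2.58 to 3.18) in barcodes with 250 to 500 genes and at 2.75 (2.26 to 3.31) in the 735 barcodes that were left out, against 2.54 (2.38 to 2.70) in those with more than 500. Rhox5 was thus at a similar level in poor and in rich barcodes. The part of free RNA in the shares of cells was not tested, so these shares are not read as shares of cells that express the gene. Dazl and Mael had 0 counts in all 3 libraries.

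The X-linked genes were counted in the same 3 libraries. Xlr had 358 counts in LN cells and 0 and 4 in lung CD44high and CD44low cells, and Magea5 (150), Magea8 (148), Xlr3a (66), Rhox2d (23), Rhox2g (12) and Rhox4a2 (8) had counts in LN cells and 0 in both lung libraries. Xlr4a had 0 counts in all 3. Xist had 137 and 55 counts in lung CD44high and CD44low cells and 3 in LN cells, and Tsix 492, 126 and 2.

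Of the other list genes called between lung and LN and BM in bulk, some had another order in single cells. Cdca7, lower in lung in bulk, was at 0.38 per 10000 (0.30 to 0.47) in lung CD44high cells, 0.07 (0.04 to 0.12) in lung CD44low cells and 0.07 (0.05 to 0.10) in LN cells. Suv39h1, also lower in lung in bulk, was at 0.57 (0.47 to 0.67), 0.41 (0.33 to 0.51) and 0.37 (0.32 to 0.42). Idh2 was at 1.71 (1.55 to 1.90), 0.75 (0.64 to 0.88) and 1.44 (1.34 to 1.55), so that lung CD44low cells were below LN cells, while the intervals of lung CD44high and LN cells overlapped. Hells was lower in both lung libraries than in LN cells, as in bulk, at 0.61 (0.51 to 0.72), 0.52 (0.43 to 0.63) and 0.94 (0.86 to 1.03). Nsd1 (0.49, 0.52 and 0.03), Zbtb4 (0.67, 0.84 and 0.15), Cxxc5 (0.32, 0.58 and 0.16) and Max (0.29, 0.46 and 0.21 per 10000) were higher in value in both lung libraries than in LN cells, as in bulk, although the intervals of Max in lung CD44high (0.23 to 0.37) and LN cells (0.18 to 0.26) overlapped. The list genes called between the CD44 groups of lung in bulk were mixed in single cells. Xist (0.62 in lung CD44high and 0.25 in lung CD44low cells), Tdrkh (0.25 and 0.04) and Gadd45g (0.78 and 1.98) kept their bulk order. Dnmt3l had 0 and 7 counts. The intervals overlapped for Gadd45a (0.15 to 0.28 and 0.17 to 0.31) and Ring1 (0.14 to 0.27 and 0.12 to 0.24). Rybp had the opposite order in value, at 0.26 (0.20 to 0.33) and 0.40 (0.32 to 0.49), with intervals that overlapped.

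Among the other germline genes, Dppa2, a factor of early embryos and germ cells, had 595, 566 and 1343 counts in lung CD44high, lung CD44low and LN cells, or 2.69 (2.48 to 2.92), 2.55 (2.34 to 2.77) and 2.54 (2.41 to 2.68) per 10000. This was near the level of Rhox5 in LN cells and alike in the 3 libraries, while Dppa2 did not exceed 0.45 TPM in any bulk library.

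Dnmt1 and Uhrf1 had another order in the single cells than in bulk. Uhrf1 was at 1.31 per 10000 (1.17 to 1.47) in lung CD44high cells, 0.50 (0.41 to 0.60) in lung CD44low cells and 0.75 (0.68 to 0.83) in LN CD44high cells. Dnmt1 was at 1.33 (1.18 to 1.49), 0.72 (0.61 to 0.84) and 0.95 (0.87 to 1.04). In both genes the lung CD44high library was the highest, whereas in bulk both lung CD44high libraries were below both LN CD44high libraries. For Dnmt1 this order rested on barcodes with more than 500 genes (1.61, 1.43 to 1.82, in lung CD44high against 0.99, 0.90 to 1.1, in LN cells) and was the opposite in those with 250 to 500 genes (0.48, 0.32 to 0.71, against 0.81, 0.66 to 0.99). Uhrf1 kept its order in the latter (1.04, 0.79 to 1.35, against 0.50, 0.38 to 0.64). The S phase genes summed to 34.0, 15.2 and 22.1 per 10000 in lung CD44high, lung CD44low and LN cells and the mitotic genes to 15.8, 4.66 and 16.1, so these lists too did not show in lung CD44high cells the low level of the bulk libraries. By the study's account, the lines for single-cell RNA-seq were chosen by their changes in the bulk data. Both assays thus name the same organs and CD44 groups for these lines. Which clonal isolate each single-cell library holds is not given in the sources used here.

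**Figure D4:**
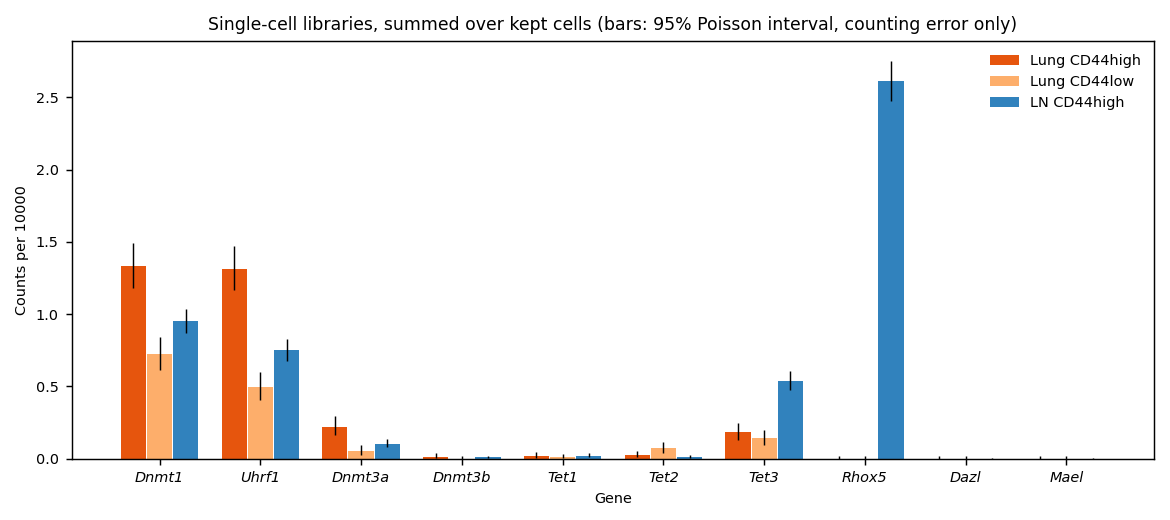
Counts per 10000 (y axis) of the 10 genes (x axis) summed over the kept cells of 3 single-cell libraries, with 95% Poisson intervals for counting error. Rhox5 was at 2.61 in LN CD44high cells and at 0 in both lung libraries, and Dnmt1 and Uhrf1 were highest in lung CD44high cells, at 1.33 and 1.31.

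Among cells with more than 500 genes, Dnmt1 and Uhrf1 were higher where mitotic genes were counted. In cells with 3 or more counts of the 12 mitotic genes, Uhrf1 was at 2.04 (1.76 to 2.34) in 108 lung CD44high cells, 1.18 (0.93 to 1.47) in 60 lung CD44low cells and 1.20 (1.07 to 1.34) in 177 LN cells. In cells with none of these counts it was at 0.35 (0.20 to 0.58) in 71, 0.08 (0.04 to 0.16) in 130 and 0.11 (0.05 to 0.21) in 92 cells. Dnmt1 was at 2.31, 1.58 and 1.29 in the former and at 0.54, 0.34 and 0.40 in the latter. Cells with 3 or more mitotic counts were also deeper (median of 9675 against 5257 counts in lung CD44high, 11134 against 8736 in lung CD44low and 16447 against 6107 in LN), which the values per 10000 scale for. Rhox5 in LN cells had no such order, at 2.57 (2.23 to 2.95), 3.28 (2.85 to 3.74) and 2.34 (2.15 to 2.53) in cells with 0, 1 to 2 and 3 or more mitotic counts.

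**Figure D5:**
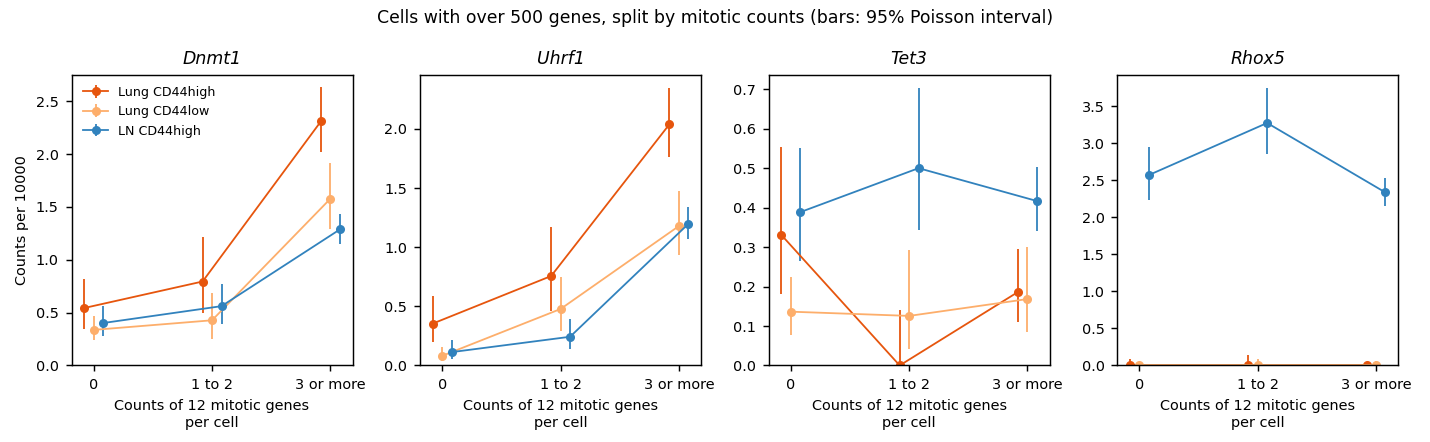
Counts per 10000 (y axis) of Dnmt1, Uhrf1, Tet3 and Rhox5 in cells with more than 500 genes, split by the counts of 12 mitotic genes in a cell (x axis), for the 3 single-cell libraries with 95% Poisson intervals. Dnmt1 and Uhrf1 were highest at 3 or more mitotic counts in all 3 libraries, and Rhox5 in LN cells stayed between 2.34 and 3.28.

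The other members were sparse in single cells. Tet3 was at 0.54 (0.48 to 0.60) in LN CD44high cells, 0.18 (0.13 to 0.25) in lung CD44high and 0.14 (0.09 to 0.20) in lung CD44low cells. Its LN value was 0.90 in barcodes with 250 to 500 genes and 0.43 in those with more than 500. Dnmt3a was at 0.22 (0.16 to 0.29) in lung CD44high, 0.05 (0.03 to 0.09) in lung CD44low and 0.10 (0.08 to 0.14) in LN cells, on 49, 12 and 55 counts. Its order between the lung libraries was the opposite of that in bulk, where CD44high was below CD44low. Tet2 had 5, 16 and 6 counts, Tet1 4, 2 and 11 and Dnmt3b 3, 0 and 4 in lung CD44high, lung CD44low and LN cells. Tet2 was at 0.07 per 10000 (0.04 to 0.12) in lung CD44low cells, above LN cells (0.01, 0.00 to 0.02), and at 0.02 (0.01 to 0.05) in lung CD44high cells, whose interval overlapped with that of LN cells. Over all barcodes, Tet2 in the lung CD44high library was at 0.06 (0.03 to 0.09) and no longer overlapped with LN (0.01, 0.00 to 0.03). In bulk, lung CD44high was above lung CD44low in Tet2. In the kept cells the order was the opposite in value, with intervals that overlapped. Over all barcodes lung CD44low was at 0.05 (0.03 to 0.09), alike to lung CD44high.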

How the data were processed

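Bulk values were deposited by the authors as TPM (transcript abundances scaled to 1 common total per library) per gene, made with STAR and RSEM on mm10 and GENCODE vM21, for 14 libraries. Single-cell values were deposited as counts per gene and barcode for 3 libraries. Versions of the authors' aligners are not given in the sources used here. The members and all lists were chosen with earlier results of these data known. All 55450 gene IDs matched vM21.

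From the TPM, log2(TPM + 1) was fitted by group in limma 3.58.1 (R 4.3.3) over the 15348 genes that reached 1 TPM in 2 or more libraries, with 7 residual degrees of freedom. DEGs had an adjusted p (Benjamini-Hochberg) below 0.05 and a log2 difference beyond 2 in either direction. Members were in the fit with all genes, and no p-value is given for them. List genes were named in full where a list had 5 or fewer calls in a comparison, as all had, and otherwise by the 3 largest rises and falls. Dnmt3c, Nanos3, Dppa2, Ftx, Jpx and genes gained under an alternative were named after their values were seen. The 5 most alike genes were taken by Pearson r for Rhox5, Dnmt1, Dnmt3b and Tet1. Replicates of a group were isolates of different mice, and replicate numbers did not pair samples. The fit was tested on simulated data for the comparison of lung with LN and BM, with 200 of 15348 genes shifted by 3 on the log2 scale, and recovered 97.5% of them with 4 false calls.

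Counts were made with kallisto. Barcodes with over 250 genes and a mitochondrial share below 10% were kept, with no doublet caller, since counts were summed per library. Intervals cover counting error only. Python 3.11.15, numpy 2.4.6, pandas 2.3.3, scipy 1.17.1 and matplotlib 3.10.9 were used. The alternatives tried were another pseudocount, other filters on low TPM, median-ratio scaling, a replicate block, leaving out each library, other limits on the log2 difference and other filters on barcodes.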

Additional observations from a re-analysis of the deposited data

Results flagged for a closer look

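The difference between CD44high and CD44low cells was itself compared between organs in limma, and 7 list genes in lung against LN and 5 in lung against BM passed the limit of 2 with an adjusted p under 0.05, where 10.4% and 8.66% of all genes tested did. Against LN, the log2 difference of differences was -2.88 for Dnmt3l, -3.36 for Gadd45a (adjusted p = 0.017), 2.09 for Jpx (adjusted p = 0.028) and 2.12 for Rybp (adjusted p = 0.046). It was 3.13 for Tdrkh (adjusted p = 0.00039), 2.38 for Xist (adjusted p = 0.0055) and -2.01 for Zbtb4 (adjusted p = 0.037). Against BM, it was -3.29 for Dnmt3l, -3.24 for Gadd45a (adjusted p = 0.024), 2.56 for Rybp (adjusted p = 0.025), 2.06 for Tdrkh (adjusted p = 0.006) and 2.38 for Xist (adjusted p = 0.0059). Dnmt3l reached 1 TPM in the lung CD44low libraries alone and entered the fit only through them, so no p-value is given for it. Both comparisons share the lung libraries. Xist did not exceed 0.01 TPM in any LN or BM library, so its CD44 difference there was 0. Its value of 2.38 against either organ is the lung difference itself, and its p-values say nothing on the other organs. That lung difference was 1.78 without lung CD44high replicate 1. Among the members, the CD44 order of libraries was opposite, without overlap, in lung and LN for Dnmt3a (difference of log2 differences -1.05) and in lung and BM for Tet1 (1.59). Among all genes tested, 66.9% had no overlap between the CD44 groups in lung, 36.8% in LN and 33.4% in BM. The share with opposite orders was not counted, so nothing is read from the orders of these members. Neither Dnmt3a nor Tet1 was called in the fit over all genes, and no p-value is given for members. Tet1 was listed at 0 in lung CD44low cells, so its value depends on the pseudocount: with 0.1 its CD44 difference was 3.83 in lung and -0.48 in BM.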

How the results depend on the processing

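With a pseudocount of 0.1, 27 rather than 17 list genes were called between lung and LN and BM, and 13 rather than 7 between CD44high and CD44low cells. Under it the difference of Rhox5 from MFP was 9.51 to 9.67 in the LN and BM groups and that of Uhrf1 between lung and LN and BM was -5.66. With no limit on the log2 difference the counts were 48 (lung against LN and BM), 52 rather than 25 (against MFP) and 20 (CD44), and with a limit of 1 they were 34, 48 and 19. Leaving out each library in turn gave 14 to 19, 21 to 28 and 4 to 13, the last being 13 without BM CD44low replicate 1 and 4 without lung CD44high replicate 1. Of the members, 2 to 4 had no overlap between lung and LN and BM, with 4 without lung CD44high replicate 1. The replicate block called 17 list genes between lung and LN and BM, the same 17, and the deviations of same-numbered samples correlated at -0.19 to 0.17 over 21 pairs of groups, so the numbers were not taken as pairs. Rhox5 in LN cells was at 2.87 per 10000 in barcodes with 250 to 500 genes, a setting chosen after seeing the data, and at 2.88 as a mean of per-cell values, against 2.61. Median-ratio scaling moved the median of all genes by -0.22 between lung and LN and BM and by 0.16 to 0.38 in the LN and BM groups against MFP, and turned the sign of small differences from MFP for Dnmt1 and Dnmt3b (BM and LN CD44high), Dnmt3a (BM CD44high, LN CD44low), Tet2 (LN CD44high) and Uhrf1 (BM CD44high). Under it the calls of Cxxc5 (1.78, lung against LN and BM), Mbd4 (-1.91), Ogt (-1.93) and Nsd1 (-1.76), the last 3 against MFP, were lost. With no filter on low TPM, where more genes are tested, the calls of E2f6 (2.43) and Max (2.38) in lung CD44low cells against MFP, of Rhox4a2 in LN CD44low (2.55) and CD44high (2.22) cells against MFP and of Ring1 (-2.76) between CD44 groups in lung were lost, and so was that of Ring1 at a pseudocount of 0.1 (-3.32). The cause was not tested for the losses under other scaling or pseudocount. No value reversed among those called. TPM keep no depth, which limits statements on low genes such as Dnmt3b and Dazl.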
